A study of Homo sapiens with 9 samples.

Results

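The genes described here come from families that hold many pre-mRNA splicing regulators. They encode SR proteins (SRSF genes), the related TRA2 proteins and the CLK kinases that phosphorylate SR proteins. Heterogeneous nuclear ribonucleoproteins (HNRNP genes) and RNA-binding motif proteins (RBM genes) make up the rest. The genes were picked by symbol, and some, such as RBM19, are described below with other roles. Members were the protein-coding genes on chromosomes 1 to 22 whose symbol was SRSF or RBM with a number (RBM also with a final letter), HNRNP with a letter, CLK with a number from 1 to 4, or TRA2 with A or B. This gave 73 members of the 57820 genes in the table: 11 SRSF, 2 TRA2, 4 CLK, 22 HNRNP and 34 RBM genes. The rule used no measured value, but it was chosen with earlier results of these data known.

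RNA was measured by Chrom-seq, in which the peroxidase APEX2 biotinylates RNA near a chromatin reader in living cells. All 9 libraries came from HEK293T, an established human embryonic kidney cell line, with 3 replicates in each of 3 groups. Every group expressed an antibody fragment fused to APEX2 together with GCN4 peptide repeats (the SunTag) that this fragment binds, both from transfected plasmids. In the CBX1 group the repeats were joined to the H3K9me3-binding chromodomain of the heterochromatin protein CBX1. The CBX1_W42A group had the same chromodomain with the amino acid change W42A, and the Control group had no reader. The labels of all 3 groups also carry the element NLS. The CBX1_W42A samples are numbered apart from those of Control and CBX1, and no batch is named. In comparisons with CBX1_W42A, a difference in preparation or sequencing run therefore cannot be told apart from the mutation. At 48 hours after transfection the cells received biotin-aniline (500 μM, 30 min) and then hydrogen peroxide (1 mM, 1 min), and polyadenylated RNA was sequenced from the captured material. The study calls its replicates independent, but the labels name no separate cultures, so p-values measure the spread between these libraries, part of which may be technical.

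SR proteins carry domains rich in arginine and serine, bind exonic enhancers and recruit the spliceosome. Many hnRNPs bind nascent RNA and compete with SR proteins for splice sites. CLK kinases phosphorylate SR proteins and thereby move them out of nuclear speckles. Several of these genes control their own output through poison exons or through introns that stay in polyadenylated nuclear transcripts. CLK1 is the classic case: transcripts that keep introns 3 and 4 wait in the nucleus and are spliced when kinase activity falls.

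The GENCODE annotation was used to see which members have such introns. Of the 73 members, 50 had at least 1 transcript of the class retained_intron, and in 30 of them at least 1 whole intron of the main transcript lay inside an exon of such a transcript. These were 3 of 4 CLK, 2 of 2 TRA2, 4 of 11 SRSF, 10 of 22 HNRNP and 11 of 34 RBM genes. They held 80 retained introns among the 657 introns of all members. HNRNPU had 11 of its 13 introns in this class, HNRNPH1 8 of 13, HNRNPA2B1 6 of 10, SRSF5 4 of 7, and CLK1 and CLK4 each 4 of 12. The retained introns were short, with a median of 346.5 bases against 1338 bases for the other 577, and 97.5% of them began with GT and ended with AG, against 98.96% of the others.

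Boundaries of retained introns are shown for CLK1 and CLK4, the standard cases, and for HNRNPU, HNRNPLL and SRSF4, the 3 members that had both an annotated retained intron and a called difference between groups. Each line gives the gene's sense strand, all of it minus, 5′ to 3′. A donor line has 10 exon bases and the first 20 intron bases, an acceptor line the last 20 intron bases and 10 exon bases, and capitals mark the GT and AG that end the intron. The sequences were read from GRCh37, the build of the counts.
CLK1 intron 3 donor, chr2:201724939-201725960: ttcacatgggGTatgaacgtttttaaaaca
CLK1 intron 3 acceptor: cgcccacttgacgtttccAGaagagtcacc
CLK4 intron 3 donor, chr5:178044436-178045556: gtcacgttcgGTatgattggttttgttttc
CLK4 intron 3 acceptor: ctgcccacttgccgttccAGaagagccacc
CLK1 intron 4 donor, chr2:201724470-201724847: agtgcaagatGTatagaatatttttcaaca
CLK1 intron 4 acceptor: gatttatttctctcttttAGatgaaattgt
CLK4 intron 4 donor, chr5:178043950-178044344: agagcaagatGTatagaatatttttcaaca
CLK4 intron 4 acceptor: tttttccctcctcactctAGatgaaatcgt
HNRNPU intron 3 donor, chr1:245023777-245025762: cttgatacttGTaagtgaagctgtttctcc
HNRNPU intron 3 acceptor: agtatttgatataattacAGataattgtga
HNRNPLL intron 5 donor, chr2:38809128-38809213: atatgcacggGTaaatatttttttcaacac
HNRNPLL intron 5 acceptor: attattttcaatcttaacAGccaactcgtc
SRSF4 intron 2 donor, chr1:29485999-29486886: tctggacgcaGTaagcattcaaagggcata
SRSF4 intron 2 acceptor: tttatttgaaccttccaaAGgtggatatgg

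The intron 4 donor was identical between the paralogs CLK1 and CLK4 over all 20 intron bases and in 29 of the 30 bases shown, whereas its acceptor matched in 18 of 30. The intron 3 boundaries matched in 17 of 30 bases at the donor and 20 of 30 at the acceptor. Against the 9-position donor consensus of CAG at the end of the exon and GTAAGT at the start of the intron, the intron 3 donors of CLK1 and CLK4 matched at 5 positions and the intron 4 donors at 4. The HNRNPU and HNRNPLL donors matched at 7 and the SRSF4 donor at 5, and the median was 6 both for retained introns and for the others. Counts covered the whole span of a gene, so a spliced transcript and one that keeps an intron added to the same value and retention itself was not measured.

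Libraries held from 8379542 to 11082852 counts, and the members took between 2.37% and 2.61% of it. No 2 replicates were identical, and those of a group differed by more than sampling noise (chi-square per degree of freedom 4.95 to 12.4). In HEK293T cells 6 of 6 marker genes of this line were detected, with a summed level of 951 to 1324 CPM (read pair counts scaled to a common library total with TMM factors) over the 9 libraries. Of the markers of other cell types, 3 of 5 blood genes summed to 1.16 to 4.09 CPM (HBB and CD3E at 0), and 3 of 4 fibroblast genes to 23.1 to 40.4 CPM (COL1A2 at 0). The 3 hepatocyte genes, all detected, summed to 1.75 to 3.16 CPM in Control, 7.73 to 11.6 in CBX1 and 3.0 to 6.0 in CBX1_W42A. The part of these genes in the results was not tested. In bulk libraries, fewer cells that contribute an RNA and less RNA per cell cannot be told apart, and neither can labeling near a reader and cellular abundance, since input RNA was not analysed here.

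Not every member could be measured. HNRNPA1, HNRNPUL2, RBM12, RBM14 and HNRNPCL1 had 0 counts in all 9 libraries. The spans of HNRNPA1, HNRNPUL2 and RBM12 lay wholly inside other genes on their strand, and 0.4% of the RBM14 span was free of them. Genes inside others on their strand held no counts, so the 0 of HNRNPA1 says nothing of the level of its mRNA. HNRNPCL1 overlapped no other gene, and 0 counts allow up to 0.358 CPM in the smallest library (3 counts, counting error only). RBM34, with 1.5% of its span free, had 12 counts in all. The remaining 67 members were tested in each comparison. Values of RBM7 (4.6% of its span free), HNRNPUL2-BSCL2 (7.6%), HNRNPA1L2 (24.4%), RBM4 (39.1%), SRSF1 (52.5%), RBM5 (63.0%), RBM44 (65.6%), HNRNPU (67.6%), HNRNPL (71.4%) and RBM6 (93.0%) rest on part of the gene. HNRNPA1L2 is also a near copy of HNRNPA1, so its reads are uncertain.

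Levels in the Control group were read on 2 scales, CPM per kb of gene span, on which reads were counted, and CPM per kb of the spliced main transcript. Exons made up between 2.48% and 100% of the main transcript's own span in the tested members, and the order of genes differed between the scales. HNRNPA2B1, which binds RNA throughout the nucleus, was highest on both, at 289 ± 26.9 per kb of span (SD, n = 3) and 925 ± 86.1 per kb of transcript. HNRNPU, also known as scaffold attachment factor A, followed per kb of span at 168 ± 13.6, and HNRNPH1 per kb of transcript at 523 ± 27.0. Per kb of span SRSF1, the founding SR protein, at 83.7 ± 1.87 and SRSF2, the speckle protein SC35, at 81.9 ± 4.25 led the SR genes, and their spreads overlapped. Per kb of transcript SRSF4 at 412 ± 43.1 and SRSF5 at 241 ± 6.59 stood above SRSF2 at 141 ± 7.34 and SRSF1 at 62.5 ± 1.39. SRSF12 was the lowest SR gene on both scales, at 2.25 ± 0.245 and 13.8 ± 1.51. TRA2B was above TRA2A per kb of span (13.8 ± 1.56 against 8.83 ± 0.611) and below it per kb of transcript (73.2 ± 8.33 against 135 ± 9.33). Among the kinases CLK2 was highest on both scales (15.2 ± 0.377 and 111 ± 2.73) and CLK4 lowest (2.1 ± 0.343 and 23.4 ± 3.83). CLK1 was above CLK3 per kb of span (6.27 ± 0.363 against 2.49 ± 0.229) and below it per kb of transcript (39.7 ± 2.30 against 55.3 ± 5.10). Per kb of span the spreads of CLK3 and CLK4 overlapped. The values of SRSF1 and HNRNPU are divided by the whole length although part of each gene was not counted. Main transcripts came from a later annotation than the counts. That of SRSF1 is longer than its counted span (5343 against 3987 bases), so its value per kb of transcript is too low. The highest RBM gene per kb of span was RBM8A, whose product Y14 belongs to the exon junction complex, at 51.2 ± 2.31, and per kb of transcript it was RBM17, a spliceosomal factor, at 141 ± 8.90. The lowest tested RBM gene was RBM46, at 0 to 1.44 CPM per library with no length scaling. The median coefficient of variation of the tested members between replicates was 7.10% in Control, 7.24% in CBX1 and 6.84% in CBX1_W42A.

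**Figure D1:**
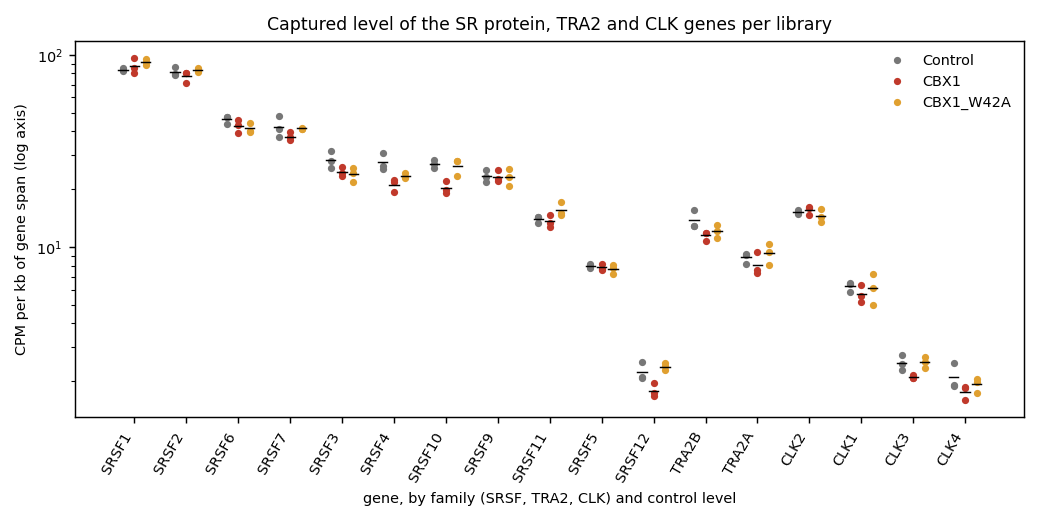
Captured level of the 11 SRSF, 2 TRA2 and 4 CLK genes in each of the 9 libraries, in CPM per kb of gene span on a log axis, with points for libraries and bars for the mean of 3 replicates. SRSF4 and SRSF10 in CBX1 sit below all 3 Control points, and on this scale the CLK genes range from 2.1 (CLK4) to 15.2 (CLK2) in Control.

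CBX1 against Control asks which RNAs are captured more near H3K9me3 than without a reader. No member was enriched and none was depleted (0 of 67 each). Enriched means higher at an adjusted p below 0.05 in edgeR's quasi-likelihood test and by a log2 of 0.75 or more. Depleted is the same rule for lower values. At an adjusted p below 0.05 alone, 2 members were higher with CBX1 (2.99% of 67; RBM33 and RBM12B) and 9 were lower (13.4%): RBM19, RBM18, SRSF10, HNRNPUL1, SRSF4, HNRNPU, RBM27, HNRNPF and HNRNPH3. Among all 18837 genes tested 10.6% were higher and 9.46% lower, and 7.06% were enriched and 0.34% depleted. Among the 9675 autosomal protein-coding genes whose mean count reached 100, which resemble most members in abundance, 5.7% were higher and 16.9% lower, and 1.19% were enriched and 0.165% depleted. The members' share of lower genes lay between the shares of these backgrounds, and their share of higher genes was below both. The members' log2 fold changes had a median of -0.10 (from -0.57 to 0.68, 48 of 67 negative), against 0.03 over all genes tested and -0.10 over the abundant coding genes.

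For 61 of the 67 members the whole 95% interval of the log2 fold change lay between -0.75 and 0.75. For 63 the upper bound lay below 0.75. Those of the 63 outside the range had a lower bound at or below -0.75, so a decrease of that size was not excluded for them. The upper bound reached 0.75 in 4 RBM genes: RBM4 (0.78), RBM44 (1.39), RBM7 (1.57) and RBM46 (2.61). In RBM7, RBM44 and RBM46 a larger difference was not detectable at this depth, since they stood near the lowest levels measured.

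**Figure D2:**
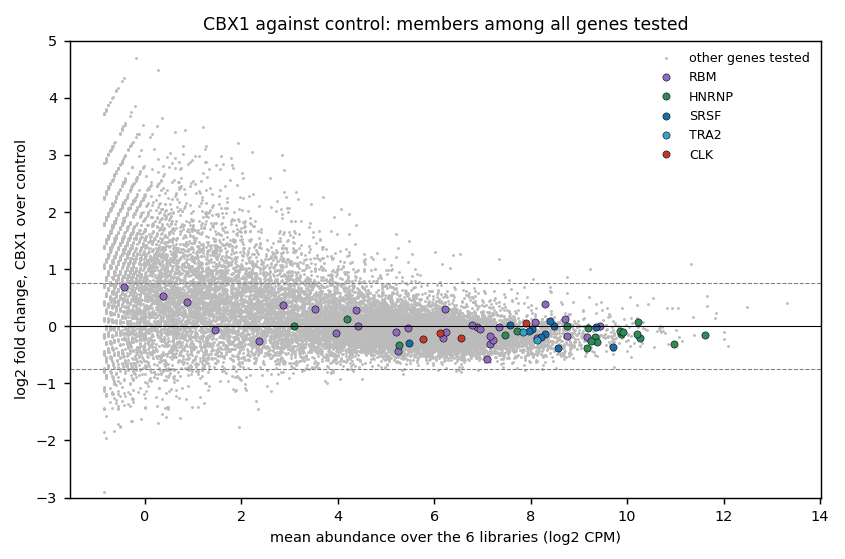
Log2 fold change of CBX1 over Control against mean abundance (log2 CPM over 6 libraries), with each tested gene in grey, members in color by family and dashed lines at the thresholds of 0.75. Most members lie in the abundant right part of the cloud, while a few, such as RBM7, RBM44 and RBM46, lie at low abundance. All members lie inside the dashed lines, and 6 genes fall outside the axes.

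Of the 11 SR genes, 2 were lower with CBX1 (18.2%, against 9.46% of all genes and 16.9% of the abundant coding genes) and none higher. SRSF10, which represses splicing when dephosphorylated, was at 437, 455 and 418 CPM in Control, 319, 309 and 356 in CBX1 and 377, 455 and 450 in CBX1_W42A. Every CBX1 library was below every other library. The log2 fold change against Control was -0.39 ± 0.09 (SE; edgeR adjusted p = 0.00702). SRSF4, one of the larger SR proteins, was at 1060, 904 and 876 CPM in Control, 663, 761 and 744 in CBX1 and 797, 785 and 836 in CBX1_W42A. The 3 groups did not overlap, with CBX1 lowest and CBX1_W42A between. Its log2 fold change was -0.36 ± 0.10 (edgeR adjusted p = 0.0142), and the adjusted p was 0.0643 without Control replicate 1 and 0.0632 without CBX1 replicate 1.

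The other 9 SR genes did not pass the test. SRSF12, which antagonizes other SR proteins, was at 46.3 to 55.9 CPM in Control, 36.9 to 43.3 in CBX1 and 50.5 to 54.9 in CBX1_W42A. Its CBX1 libraries were below all others (log2 fold change -0.30, edgeR adjusted p = 0.0662). SRSF3 had a log2 fold change of -0.19 and SRSF7 of -0.14, both of which are small SR proteins with roles in mRNA export. For SRSF6 it was -0.09, for SRSF2 -0.05, for SRSF11 -0.01, for SRSF9 0.02 and for SRSF1 0.09. For SRSF5 the difference was close to 0, with a 95% interval from -0.18 to 0.18, and its groups overlapped at 350, 370 and 360 CPM in Control against 347, 344 and 369 in CBX1. TRA2B, a splicing activator that works with SR proteins, had a log2 fold change of -0.23 (edgeR adjusted p = 0.0998), and TRA2A of -0.10 (edgeR adjusted p = 0.545).

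None of the 4 CLK genes passed the test in this comparison. CLK1 was at 68.4, 76.1 and 75.3 CPM in Control and 74.0, 60.6 and 65.2 in CBX1, and these ranges overlapped (log2 fold change -0.11, 95% interval -0.33 to 0.10). CLK4 was at 53.0, 69.7 and 53.3 CPM in Control and 51.7, 44.7 and 51.9 in CBX1. All CBX1 libraries were lower, by a margin small beside the spread within Control (log2 fold change -0.22, interval -0.47 to 0.03). CLK3 was at 113, 94.0 and 101 CPM in Control and 85.9, 86.1 and 88.5 in CBX1, without overlap (log2 fold change -0.21, interval -0.41 to -0.01, edgeR adjusted p = 0.119). CLK2, the only CLK gene with no annotated retained intron, had a log2 fold change of 0.06 (interval -0.13 to 0.24).

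**Figure D3:**
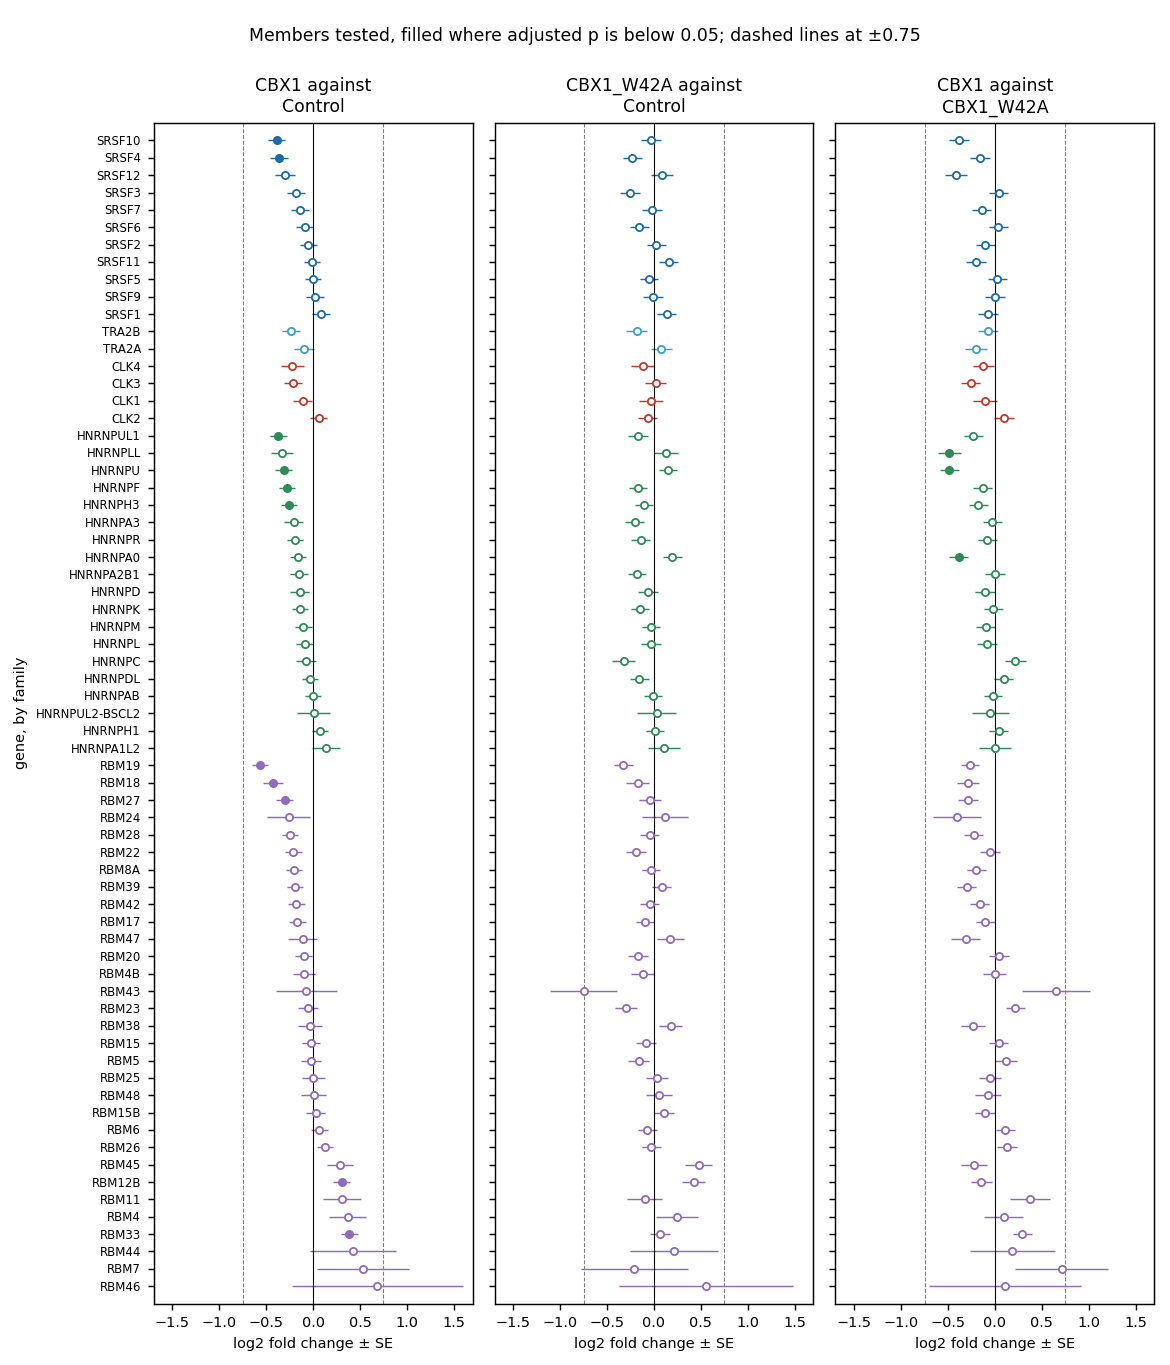
Log2 fold change with its standard error for the 67 tested members in CBX1 against Control, CBX1_W42A against Control and CBX1 against CBX1_W42A, with filled points where the adjusted p is below 0.05 and dashed lines at 0.75 in both directions. The first panel has 11 filled points, the second 0 and the third 3, all 3 of them HNRNP genes.

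Of the 19 hnRNP genes tested, 4 were lower with CBX1 than in Control (21.1%) and none higher. The lower share was 9.46% over all genes and 16.9% over the abundant coding genes. HNRNPUL1, a relative of HNRNPU with a role in DNA end resection, was at 723, 640 and 606 CPM in Control and 484, 514 and 495 in CBX1. The groups stood apart (log2 fold change -0.37 ± 0.09, edgeR adjusted p = 0.00888), and CBX1_W42A, at 546 to 626, was above CBX1 and overlapped Control. HNRNPU was at 2448, 2098 and 2184 CPM in Control, 1657, 1840 and 1825 in CBX1 and 2335, 2571 and 2549 in CBX1_W42A. Here the CBX1 libraries were lowest and the CBX1_W42A libraries overlapped Control. The log2 fold change against Control was -0.31 ± 0.09 (edgeR adjusted p = 0.022), and the adjusted p was 0.0877 without Control replicate 1, 0.0836 without CBX1 replicate 1 and 0.0602 without CBX1 replicate 3.

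HNRNPF and HNRNPH3 belong to the subfamily that binds runs of guanine. HNRNPF was at 724, 792 and 704 CPM in Control and 610, 603 and 589 in CBX1 (log2 fold change -0.28 ± 0.09, edgeR adjusted p = 0.0332). HNRNPH3 was at 712, 643 and 653 CPM in Control and 515, 576 and 559 in CBX1 (-0.26 ± 0.09, edgeR adjusted p = 0.0485). Both groups stood apart in each gene. Without 1 library the adjusted p of HNRNPF exceeded 0.05 for each library except Control replicate 1 (from 0.0549 to 0.119), and that of HNRNPH3 for each except Control replicate 2 (from 0.061 to 0.157). HNRNPH1 of the same subfamily had a log2 fold change of 0.08. The largest positive value among hnRNP genes was 0.13 ± 0.15 in HNRNPA1L2 (edgeR adjusted p = 0.553).

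RBM genes moved in both directions, with 2 higher (6.45%) and 3 lower (9.68%) of 31 tested. Over all genes 10.6% were higher and 9.46% lower, and over the abundant coding genes 5.7% and 16.9%. RBM19, a nucleolar protein of ribosomal RNA processing, was at 169, 167 and 156 CPM in Control, 106, 112 and 108 in CBX1 and 129, 135 and 128 in CBX1_W42A. The 3 groups did not overlap. With a log2 fold change of -0.57 ± 0.09 (95% interval -0.75 to -0.39, edgeR adjusted p = 0.000416), this was the largest decrease of any member. RBM18 was at 42.8, 48.4 and 41.1 CPM in Control and 31.1, 32.1 and 33.1 in CBX1 (-0.43 ± 0.11, edgeR adjusted p = 0.00986). RBM27, which takes part in nuclear RNA decay by the exosome, was at 173, 152 and 156 CPM in Control and 121, 126 and 135 in CBX1 (-0.30 ± 0.09, edgeR adjusted p = 0.0271). In both genes all CBX1 libraries were below all Control libraries. The RBM27 adjusted p rose above 0.05 without any 1 library except Control replicate 2 (from 0.0523 to 0.0956).

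RBM33, which acts in mRNA export, went the other way. It was at 289, 252 and 287 CPM in Control, 351, 348 and 364 in CBX1 and 284, 269 and 315 in CBX1_W42A. All CBX1 libraries were above all others (log2 fold change 0.39 ± 0.09, edgeR adjusted p = 0.00696). RBM12B, on chromosome 8, was at 63.3, 67.9 and 69.9 CPM in Control, 84.1, 81.7 and 77.9 in CBX1 and 94.8, 98.7 and 75.7 in CBX1_W42A. Libraries with either reader were above Control (0.30 ± 0.09 for CBX1, edgeR adjusted p = 0.0298). For RBM12B the adjusted p exceeded 0.05 without any 1 library except Control replicate 2 (from 0.0506 to 0.113). RBM46, which is known from germ cells, had the highest log2 fold change of the family (0.68 ± 0.91, edgeR adjusted p = 0.631) on 0 to 1.44 CPM per library.

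**Figure D4:**
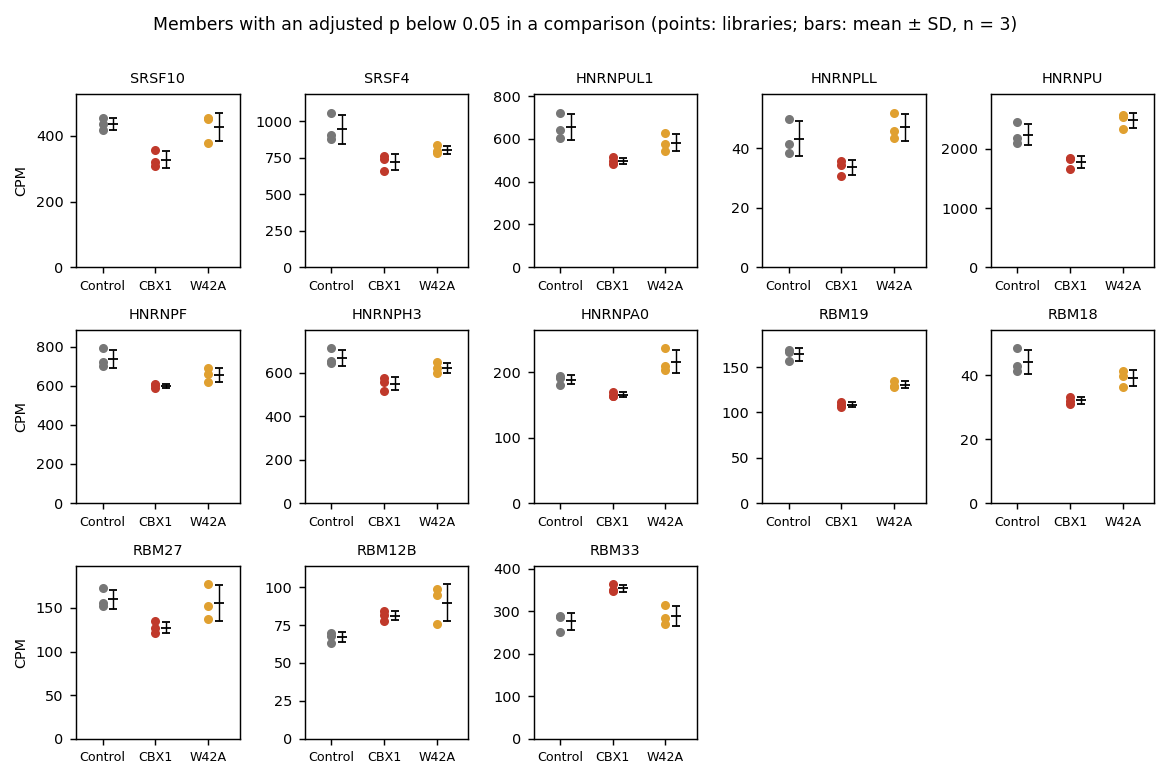
CPM in each library (points) with mean and SD of 3 replicates (bars) for the 13 members with an adjusted p below 0.05 in at least 1 comparison, each on its own axis from 0. CBX1 is lowest in all panels but those of RBM33, where it is highest, and RBM12B, where it lies between the means of Control and CBX1_W42A.

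Counted without a test, 24 members had all CBX1 libraries below all Control libraries (35.8%) and 3 had them above (4.48%). The shares were 20.3% and 17.6% over all genes tested, and 34.1% and 8.73% over the abundant coding genes. The summed level of the HNRNP members was 15799 to 17638 CPM in Control and 14036 to 15125 in CBX1, and that of the SRSF members 4036 to 4275 and 3648 to 3720, without overlap in either family. The sums of the CLK genes, 467 to 478 CPM against 420 to 464, also did not overlap, while those of the RBM and TRA2 genes did. In CBX1_W42A the HNRNP sum, 15381 to 15747 CPM, was likewise below all Control libraries. The SRSF sum there, 3983 to 4090 CPM, and the CLK sum, 447 to 471 CPM, overlapped Control. These sums were not set against other genes. On total counts without TMM scaling, the members' share of a library was 2.48% to 2.61% in Control and 2.37% to 2.51% in CBX1, and these ranges overlapped. With library size alone or upper-quartile factors in place of TMM, the median over all genes tested moved from 0.03 to 0.12 and 0.11, and 4 members in place of 9 were lower. Of all genes called, 52.9% were higher with TMM, 73.3% with upper-quartile factors and 74.3% with library size alone.

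CBX1_W42A against Control asks what the mutant reader captures relative to no reader. No member passed the edgeR test in either direction (0 of 67), where 1.37% of the 18680 genes tested were higher and 1.25% lower, and 0.974% were enriched and 0.0214% depleted. Of the abundant autosomal protein-coding genes 0.823% were higher and 2.28% lower, and 0.309% were enriched and 0.0206% depleted. All CBX1_W42A libraries were above all Control libraries in 6 members (8.96%, against 12% of all genes and 5.74% of abundant coding genes) and below them in 11 (16.4%, against 12.5% and 20.9%). At an unadjusted p below 0.05, 2 members were higher (RBM12B and RBM45) and 6 lower. By the same measure 1804 were higher and 1795 lower of the 18680 genes tested. Of the 9722 abundant coding genes 418 were higher and 1627 lower. DESeq2 called 1 member higher (RBM12B, adjusted p = 0.034) and 1 lower (RBM19, adjusted p = 0.0361). The median log2 fold change was -0.04, against 0.01 over all genes and -0.08 over the abundant coding genes. It turned to 0.05 with upper-quartile factors and 0.04 with library size alone, under which the share of higher genes among all calls was 86.8% and 84.6% in place of 52.4%.

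Values nearest to a call came from RBM genes. RBM12B had a log2 fold change of 0.42 ± 0.12 (edgeR adjusted p = 0.0601) and RBM45 of 0.48 ± 0.14 (adjusted p = 0.0759 by the same test). RBM45 was at 16.6, 19.9 and 19.8 CPM in Control, 19.6, 22.3 and 25.2 in CBX1 and 24.0, 29.2 and 25.1 in CBX1_W42A, so only the mutant libraries were all above Control. RBM19 had -0.33 ± 0.10 (edgeR adjusted p = 0.0789). The lowest value was -0.75 ± 0.36 in RBM43, at 1.38 to 3.16 CPM over the 9 libraries (edgeR adjusted p = 0.253). Among hnRNP genes the range ran from -0.32 in HNRNPC, which packages nascent transcripts, to 0.20 in HNRNPA0. The SR genes lay between -0.25 (SRSF3) and 0.16 (SRSF11), TRA2B was at -0.19 and TRA2A at 0.08. The CLK genes were at -0.03 (CLK1), -0.07 (CLK2), 0.02 (CLK3) and -0.12 (CLK4), with 95% intervals that all lay between -0.39 and 0.24. This comparison and that of CBX1 with Control share the Control libraries.

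CBX1 against CBX1_W42A compares the readers directly, with the limit that their libraries may differ in preparation or sequencing run. Of 67 members, 3 were lower with CBX1 (4.48%), all of them hnRNP genes, and none was higher. The background was 0.925% lower and 1.32% higher of 19360 genes tested, with 0.795% enriched and 0.201% depleted. Of the abundant autosomal protein-coding genes 1.51% were lower and 1.32% higher, with 0.417% enriched and 0.143% depleted. The groups did not overlap in 19 members that were lower with CBX1 (28.4%, against 11% of all genes and 15.6% of abundant coding genes) and in 4 that were higher (5.97%, against 10.3% and 7.95%). No member reached the threshold of 0.75, and for 61 of 67 the 95% interval lay inside it. The median log2 fold change was -0.08, against -0.004 over all genes and -0.04 over the abundant coding genes. At an unadjusted p below 0.05, 2 members were higher and 12 lower. By the same measure 1593 were higher and 1627 lower of the 19360 genes tested. Of the 9822 abundant coding genes 683 were higher and 1213 lower. Of all genes called, 58.8% were higher, and 69.1% with upper-quartile factors or 75.1% with library size alone.

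HNRNPU was the clearest of the 3, with 1657 to 1840 CPM in CBX1 and 2335 to 2571 in CBX1_W42A (log2 fold change -0.49 ± 0.10, edgeR adjusted p = 0.0133). The adjusted p rose to 0.083 without CBX1 replicate 1, 0.0725 without CBX1 replicate 3 and 0.0548 without CBX1_W42A replicate 3. HNRNPLL, known for splicing of the CD45 mRNA in lymphocytes, was at 34.2, 30.8 and 35.8 CPM in CBX1, 45.8, 52.0 and 43.4 in CBX1_W42A and 38.3, 49.8 and 41.5 in Control. CBX1 was lowest without overlap (-0.49 ± 0.12, edgeR adjusted p = 0.0326), and the adjusted p exceeded 0.05 without any 1 library except CBX1_W42A replicate 3 (from 0.0621 to 0.116). HNRNPA0, a small hnRNP that binds AU-rich elements, was at 170, 164 and 164 CPM in CBX1 and 203, 209 and 237 in CBX1_W42A, on either side of Control at 195, 180 and 191. Its log2 fold change was -0.38 ± 0.10 (edgeR adjusted p = 0.048). This call was lost in 11 of 16 alternatives, and the adjusted p exceeded 0.05 without any 1 library except CBX1_W42A replicate 2 (from 0.0605 to 0.199). HNRNPLL and HNRNPA0 had not passed the test in CBX1 against Control, at -0.33 (edgeR adjusted p = 0.0561) and -0.16 (edgeR adjusted p = 0.203).

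Among SR genes, SRSF12 (log2 fold change -0.41 ± 0.11, edgeR adjusted p = 0.0537) and SRSF10 (-0.38 ± 0.11, edgeR adjusted p = 0.061) came close to the threshold, and DESeq2 called both (adjusted p = 0.0473 and 0.0265). The remaining SR genes lay between -0.20 (SRSF11) and 0.04 (SRSF3). The CLK genes were at -0.11 (CLK1), 0.10 (CLK2), -0.26 (CLK3, edgeR adjusted p = 0.197) and -0.12 (CLK4). TRA2A was at -0.20 and TRA2B at -0.08. RBM genes ran from -0.40 in RBM24 to 0.71 in RBM7, both with wide errors (SE 0.26 and 0.50), and RBM33 was at 0.29 ± 0.10 (edgeR adjusted p = 0.14). The 95% intervals of all 4 CLK genes and both TRA2 genes lay inside the threshold of 0.75 in each of the 3 comparisons.

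Members with an annotated retained intron were compared with those without one, as a description. In CBX1 against Control the 27 tested members with a retained intron had a median log2 fold change of -0.17 and 2 lower genes (HNRNPU and SRSF4), and the 40 without had a median of -0.04, with 7 lower and 2 higher. The first set was also captured at a higher level, with a median of 304 CPM in Control against 176. In that comparison 9.46% of all genes tested were lower and 10.6% higher. Of the abundant coding genes 16.9% were lower and 5.7% higher. In CBX1_W42A against Control the medians were -0.05 and -0.03, and in CBX1 against CBX1_W42A -0.10 and -0.07. Over the 67 members, the Spearman correlation of the CBX1 difference was -0.24 with the number of retained introns, -0.29 with the Control level and -0.01 with gene span. For CBX1_W42A against Control the same correlations were -0.10, -0.28 and 0.04. The Control level is also part of the fold change that it was correlated with. All points of a comparison share the same 6 libraries, and the part of abundance in the difference was not tested for these sets. Of the 27 members with a retained intron 23 had a negative log2 fold change in CBX1 against Control, and of the 40 without one 25 did. Over all genes tested 8869 of 18837 were negative, and among the abundant coding genes 6363 of 9675. Of the 18 members with 1 to 3 retained introns 15 were negative, with a median of -0.19. The median of the 9 members with 4 or more was -0.14. Of these 9, 8 were negative, SRSF5 only by -0.0001, and only HNRNPU, with 11, passed the test. The others of these 9 ran from -0.22 in CLK4, -0.21 in HNRNPA3, -0.15 in HNRNPA2B1, -0.14 in HNRNPD, -0.11 in CLK1 and -0.02 in RBM5 to about 0 in SRSF5 and 0.08 in HNRNPH1.

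**Figure D5:**
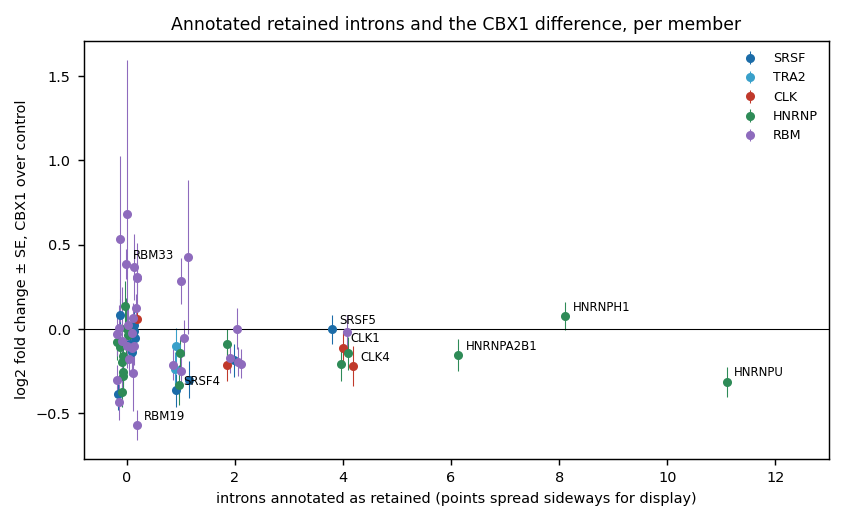
Log2 fold change of CBX1 over Control with its standard error against the number of annotated retained introns, for the 67 tested members colored by family, with small sideways shifts for display. Most members have 0 to 2 retained introns and spread on both sides of 0, and HNRNPU stands alone at 11 with -0.31.

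Other splicing genes were read from lists of the core machinery and its regulators. In CBX1 against Control 1 of 59 tested was higher and 16 were lower (27.1%, against 9.46% of all genes and 16.9% of the abundant coding genes), with a median log2 fold change of -0.13. The U2 snRNP, which recognizes the branch point, had 5 of 10 lower: SF3A1 (-0.50), SF3B1, SF3B2, SF3B3 and SF3B5. The U5 and U4/U6 snRNP list had 3 of 10 lower (PRPF6, PRPF8 and SNRNP200), and the list of SR protein kinases and speckle scaffolds 3 of 10 (PNN, PRPF4B and the SR protein kinase SRPK1), with DYRK1A higher (0.33). Among other regulators 5 of 20 were lower, with PCBP1 at -0.62, PTBP1 at -0.43, and MATR3, MBNL1 and QKI. None of 5 U1 snRNP genes and none of 4 genes for factors at the 3′ splice site was called. In CBX1_W42A against Control 0 of 58 were higher and 5 lower (8.62%, against 1.25% of all genes and 2.28% of the abundant coding genes), namely SF3B2 (-0.43), SF3B3 (-0.58), EFTUD2, PRPF8 and SNRNP200. In CBX1 against CBX1_W42A 0 of 59 were higher and PCBP1, which binds runs of cytosine, was lower (-0.59; 1.69%, against 0.925% of all genes).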

How the data were processed

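The authors used fastp (version 0.23.1) for trimming, HISAT2 (version 2.1.0) for alignment to hg19 and featureCounts (version 2.0.1) with GENCODE v19 for read pairs per gene. The deposited values are raw counts of 57820 genes in 9 libraries (0 columns not used), with no normalization. The listed length equals the gene span in all 57820 genes. Strand and overlap settings are not given in the sources used here, and genes inside others on their strand held no counts.

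Each comparison used its 6 libraries in R (version 4.3.3), with genes whose counts summed to more than 18, TMM factors and the quasi-likelihood test of edgeR (version 4.0.16) with Benjamini-Hochberg adjustment over all genes tested, without a replicate block. "Higher" and "lower" mean an adjusted p below 0.05, and "enriched" and "depleted" also a log2 fold change of at least 0.75. Printed CPM used TMM factors of all 9 libraries. The biological coefficient of variation was 10.5% to 11.7%. DESeq2 (version 1.42.0), other factors and filters, 1 fit of 9 libraries, a replicate block, removal of abundance or span trends (lowess span 0.3) and leaving out libraries were alternatives. The tests were tested on simulated data.

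Introns and transcript lengths came from GENCODE v44 lifted to GRCh37, which matched 73 of 73 members (2 by symbol). HNRNPH2, RBM3, RBM10 and RBM41 lie outside chromosomes 1 to 22, and SRSF8 is listed as a pseudogene. Named were all SRSF, TRA2 and CLK members, HNRNP and RBM members that were called, highest, lowest or overlapped by other genes, and the gene lists. HNRNPH1, HNRNPD, RBM45 and the members close to a call were added after their values were seen. Members and lists were chosen with earlier results of these data known.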

Additional observations from a re-analysis of the deposited data

Results flagged for a closer look

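The effects of the 2 readers against the shared Control libraries differed in 3 members, tested directly as CBX1 against CBX1_W42A with edgeR. HNRNPU differed by a log2 of -0.488, HNRNPLL by -0.485 and HNRNPA0 by -0.384, and in each gene all 3 CBX1 libraries were below all 3 CBX1_W42A libraries. At an adjusted p below 0.05, 0.925% of all genes tested were lower and 1.32% higher, and of the abundant coding genes 1.51% and 1.32%. No call held in all 16 alternatives. It was lost in 3 for HNRNPU, 5 for HNRNPLL and 11 for HNRNPA0. Only 67.6% of the HNRNPU span is free of the gene HNRNPU-AS1 on the same strand, and its values rest on that share, while HNRNPLL and HNRNPA0 overlap no gene on their strand.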

How the results depend on the processing

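Enriched and depleted members stayed at 0 in all 3 comparisons under all alternatives run. In CBX1 against Control (2 higher, 9 lower), 4 members were lower with upper-quartile factors or library size alone. Removing the abundance trend left 2 lower (RBM18 and RBM19) and moved the median log2 fold change to 0.003. It kept RBM33 and RBM12B higher and added RBM26 as higher (log2 fold change 0.29, edgeR adjusted p = 0.0312). Removing the span trend gave 1 higher and 15 lower. The fit of 9 libraries gave 1 higher, and leaving out single libraries 1 to 2 higher and 4 to 9 lower. RBM33, RBM18 and RBM19 kept their call in 16 of 16 alternatives, and SRSF10 and HNRNPUL1 lost it only with the abundance trend removed (adjusted p = 0.131 and 0.147). In CBX1_W42A against Control (0 called by edgeR), DESeq2 gave 1 higher and 1 lower, upper-quartile factors and the fit of 9 libraries each 2 higher (RBM12B and RBM45), and library size alone, no filter and removal of the abundance trend each 1 higher (RBM12B). Leaving out single libraries gave 0 to 1 higher there. In CBX1 against CBX1_W42A (3 lower), DESeq2 gave 6 lower, no filter 5, and leaving out single libraries 0 to 2. RLE or upper-quartile factors, library size alone, filterByExpr and removal of the abundance or span trend each gave 2 lower and ended the HNRNPA0 call (adjusted p from 0.051 to 0.118). The cause was not tested.

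With the replicate number as a block, 1 member was higher and 5 lower in CBX1 against Control, 0 in CBX1_W42A against Control, and 6 lower in CBX1 against CBX1_W42A. Deviations of libraries with the same number were at most weakly correlated (from -0.088 to 0.078), so the number was not taken to pair them. In CBX1 against CBX1_W42A every library correlated best with its own number (0.041 to 0.060), and in the other comparisons not every one did. Over all genes the block changed the calls there from 255 to 569 higher and from 179 to 467 lower. In CBX1 against Control they went from 1998 to 1433 and from 1782 to 1027, and in CBX1_W42A against Control from 256 to 306 and from 233 to 285. With 3 libraries per group, the median standard error of a member's log2 fold change was 0.095 in CBX1 against Control, 0.106 in CBX1_W42A against Control and 0.104 in CBX1 against CBX1_W42A, which limits the differences that could be called.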
